A study of Mus musculus with 2 samples.

Results

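Rescued Treg cells with a high level of the tdTomato lineage reporter were compared with rescued Treg cells in which the reporter was not captured. Cells were selected on their TdTomato counts: 452 cells with 8 or more TdTomato UMIs (unique molecular identifiers, the tags that mark single captured RNA molecules) formed the reporter-high class and 1496 cells with 0 UMIs formed the no-reporter class, out of 3390 rescued cells and 7024 cells in all. The mice were Foxp3LSL/y Cd4creERT2 males of the C57BL/6 strain, in which a loxP-flanked stop cassette keeps Foxp3 off until Cre removes it, and they also carried the Cre-dependent Rosa26 tdTomato allele on both chromosomes. They received 4-hydroxytamoxifen (4-OHT), which switches on the CreERT2 recombinase made in CD4 T cells, on postnatal day 14. GFP+ Treg cells of spleen and lymph nodes of 4 mice were sorted and pooled into 1 library at 7 months, which the labels give as the age and the methods as the time since 4-OHT. A control library held Treg cells pooled from 5 Foxp3DTR-GFP/y Cd4creERT2 mice with the same reporter, treatment and time, in which Foxp3 is on from the start. Because all rescued cells came from 1 capture of pooled mice, the classes are sets of cells and not replicates, cells of single mice could not be separated, no test was run, and each interval below is a 95% interval for counting error only.

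Treg cells are CD4 T cells that hold immune responses in check under the control of the transcription factor Foxp3. After antigen contact they pass from a resting, recirculating state to an effector state marked by costimulatory receptors, chemokine receptors for inflamed tissue and suppressor molecules. A Rosa26 reporter with a floxed stop is switched on once, by recombination, and is then inherited by all descendants of the cell, so that its protein marks cells descended from those present at treatment. Its transcript is nonetheless read from a short-lived pool of RNA, and a cell without a captured TdTomato molecule may still carry a recombined allele. The paper describes by far the most rescued Treg cells as tdTomato-positive, whereas 44.1% of the rescued cells had 0 TdTomato UMIs. By that account the no-reporter class must hold labelled cells. The contrast is therefore one of captured reporter transcript, and not of labelled against unlabelled cells. The share of labelled cells in the no-reporter class was not tested.

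The reporter-high cells held 6726 TdTomato UMIs, with a median of 12 and a maximum of 61 per cell. Between the classes lay 631 cells with 1 UMI, 454 cells with 2 to 3 and 357 cells with 4 to 7. The distribution had no gap at the threshold, since 63 cells held exactly 8 UMIs (1470 TdTomato CPM, median depth 4287 UMIs) and 68 cells held exactly 7 (1268 CPM, 4549 UMIs). The classes differed in depth. Without TdTomato, the median was 4911.5 UMIs and 2195 genes per cell in the reporter-high class (range 1745 to 37176 UMIs), against 3603 UMIs and 1774 genes in the no-reporter class (range 1675 to 13161). The median mitochondrial share was 8.29% and 9.29%. Both medians lie above the limit of 5% over which the paper describes removing cells, and the reason was not tested. Depth did not separate the classes fully. When rescued cells were ranked by depth and divided into 10 sets of 339, 54.0% of the shallowest set had no TdTomato UMI (exact binomial interval 48.5% to 59.4%) and 5.60% had 8 or more (3.41% to 8.61%), whereas in the deepest set 21.5% still had none (17.3% to 26.3%) and 31.9% had 8 or more (26.9% to 37.1%). The contrast was therefore repeated in 417 pairs of a reporter-high and a no-reporter cell whose UMI totals differed by at most 5%, which had medians of 4717 and 4718 UMIs. The 35 reporter-high cells left without a partner were deep cells, with 8513 UMIs or more and a median of 14322.

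**Figure D1:**
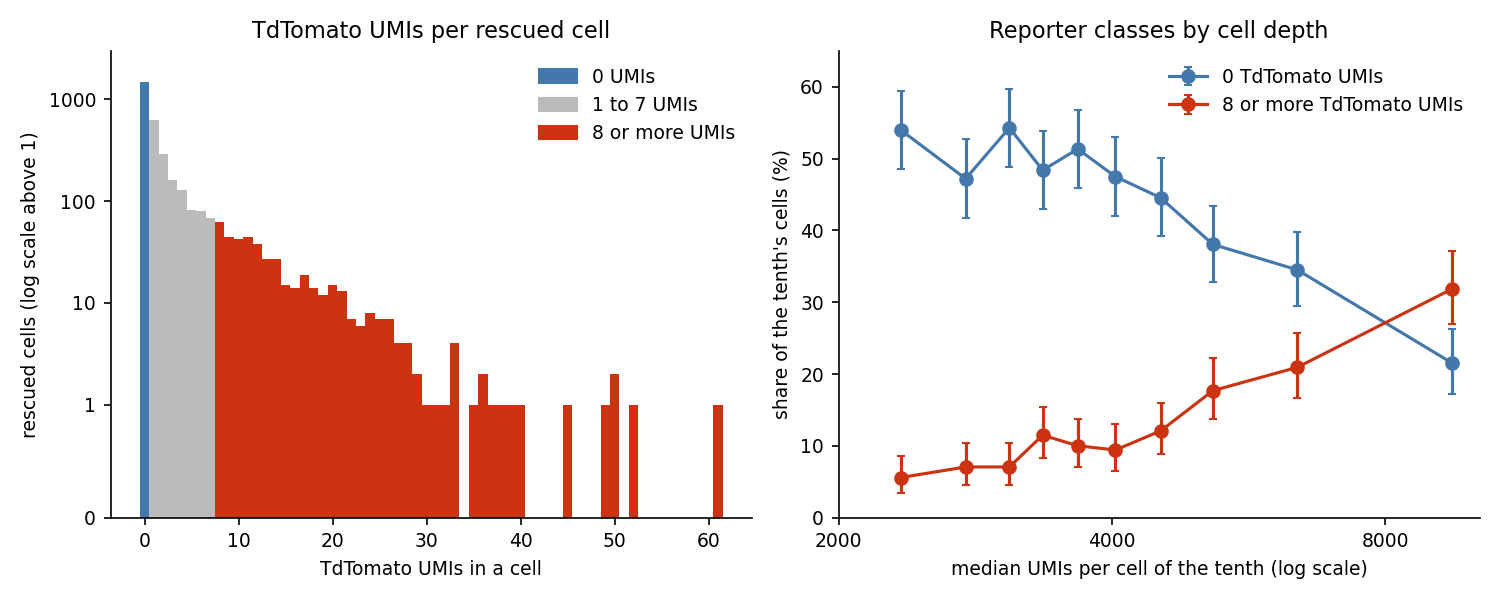
TdTomato UMIs per rescued cell. Left, number of cells (log scale above 1) at each TdTomato count, with the 1496 cells at 0 in blue, the cells at 1 to 7 in grey and the 452 cells at 8 or more in red. Right, share of cells (%) at 0 and at 8 or more TdTomato UMIs in each of 10 sets of rescued cells ranked by depth, against the set's median UMIs per cell (log scale), with exact binomial 95% intervals. The share at 0 went from 54.0% in the shallowest to 21.5% in the deepest set, and the share at 8 or more from 5.60% to 31.9%.

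Levels are given as CPM, the UMIs of a gene summed over a class and scaled to counts per 1e+06 UMIs of all genes but TdTomato, and differences as the log2 ratio of CPM, reporter-high over no-reporter. Of 6028 genes with at least 200 UMIs over both classes, 124 (2.06%) were higher by a log2 ratio of 0.5 or more in reporter-high cells and 100 (1.66%) were lower by as much. The median ratio of all 6028 genes was 0.02, and the 5th and 95th percentiles were -0.33 and 0.37. A log2 ratio of 1 or more separated 18 higher and 6 lower genes. With UMIs matched, 3917 genes had 200 UMIs, of which 80 (2.04%) were higher and 50 (1.28%) lower past 0.5. Of the 124 higher genes, 86 had 200 UMIs in the matched cells, where all 86 kept their direction and 56 were past 0.5. Of the 100 lower genes, 32 had 200 UMIs there, all 32 kept their direction and 23 were past 0.5. Over all 6028 genes the sign was the same in both contrasts for 4729 (78.45%). The matched cells are a part of the cells by which the 124 and 100 genes were picked. Agreement in direction was therefore favoured in advance and is no independent support. In 5 of the 124 higher genes (Areg, Igkc, Nkg7, Gzmb and Gzma) over 50% of the class's UMIs came from 5 cells. Of these 5, Igkc, Gzmb and Gzma lie outside the naming rule and are given here because of that concentration.

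The gene furthest from 0 among the higher genes was Gt(ROSA)26Sor (chromosome 6, 113067428 to 113077333, minus strand, GRCm38), the noncoding RNA of the locus into which the reporter is inserted. It had 282 UMIs (103 CPM) in reporter-high and 144 UMIs (23.8 CPM) in no-reporter cells. The log2 ratio was 2.11 (1.82 to 2.41). With UMIs matched it had 260 and 56 UMIs and a ratio of 2.20 (1.78 to 2.64). At a fixed 2000 UMIs per cell, 21.1% of reporter-high cells (17.4% to 25.2%) and 5.01% of no-reporter cells (3.95% to 6.25%) held a molecule of it. Its UMIs were spread widely, with 10.6% of the class's UMIs in the top 5 of 179 positive cells. Its ratio ran from 1.71 to 2.40 over 11 other ways of making the comparison. The paper states that the coding region and trailing untranslated region of the tdTomato allele were added to the reference. Reads from other parts of the reporter allele could thus be counted to Gt(ROSA)26Sor. Its counts may therefore not be independent of the TdTomato counts by which cells were selected, in either library, which was not tested.

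Setd5, a gene for a chromatin-associated SET domain protein whose annotated start lies 32 bases from that of Gt(ROSA)26Sor on the opposite strand (113077365 to 113153435), stood at 191 CPM in reporter-high and 110 CPM in no-reporter cells. Its ratio was 0.79 (0.63 to 0.96), and 0.86 (0.63 to 1.10) with UMIs matched. It was found in 31.6% (27.3% to 36.1%) and 19.7% (17.7% to 21.8%) of cells at the fixed depth. Thumpd3, which encodes a predicted RNA methyltransferase and overlaps Gt(ROSA)26Sor by 846 bases on the opposite strand, had 77.1 and 82.4 CPM and a ratio of -0.10 (-0.34 to 0.14). Reads from that overlap could not be assigned here to either strand with certainty, since the strand setting of the counting is not given in the sources used here. Brpf1, a subunit of histone acetyltransferase complexes, had a ratio of -0.15 (-0.56 to 0.24). The other genes of the list of flanking genes fell short of 200 UMIs: Mtmr14 had 64 and 120 UMIs, Ogg1 24 and 81, Lhfpl4 3 and 4, and Cpne9 3 and 1. The list thus had 2 of 4 genes with enough UMIs past the fold, with a median of 0.35. In a window of 500000 bases to either side, taken after these values had been seen, 9 of 24 listed genes had 200 UMIs. The 7 other than Gt(ROSA)26Sor and Setd5 lay between -0.20 (Tada3) and 0.34 (Arpc4), and 0 of them were past 0.5. Among 28 DNA methylation and silencing genes with enough UMIs, which include the DNA methyltransferases and the HUSH complex, 0 were past the fold in either direction and the median was 0.02.

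**Figure D2:**
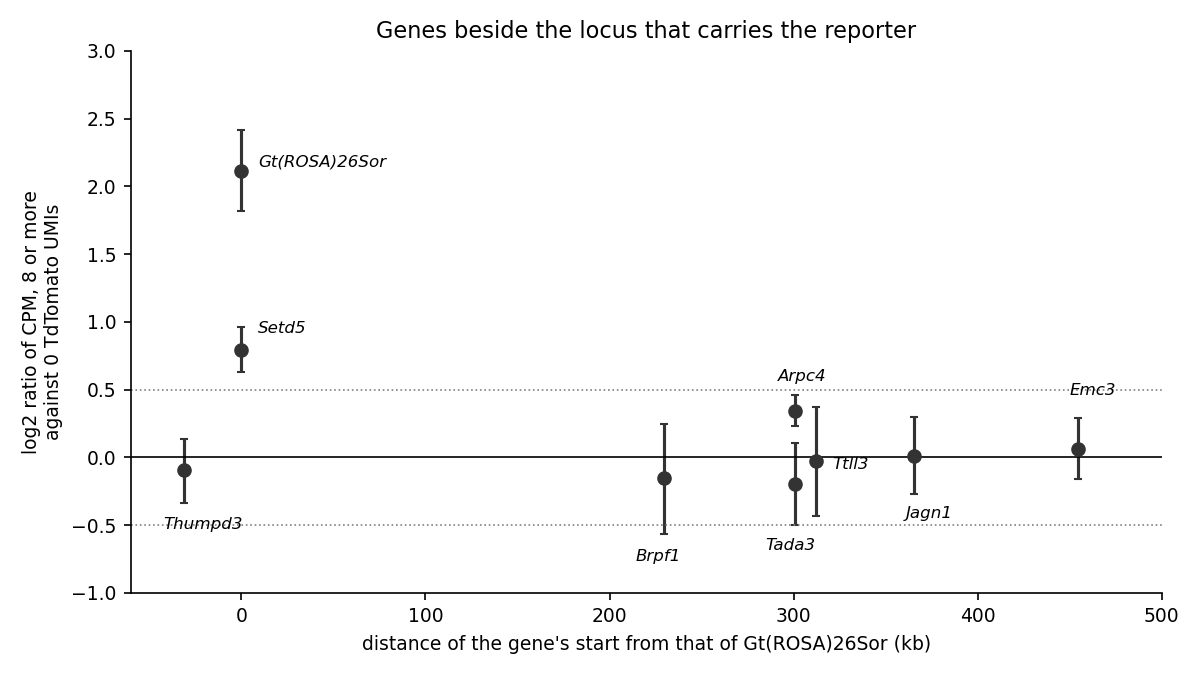
Genes beside the locus that carries the reporter. Log2 ratio of CPM between rescued cells with 8 or more and with 0 TdTomato UMIs (y axis, bars are 95% counting intervals) against the distance of each gene's start from the start of Gt(ROSA)26Sor in kilobases (x axis), for genes with at least 200 UMIs. Gt(ROSA)26Sor stands at 2.11 and Setd5 at 0.79. The points of the other 7 genes lie between the dotted lines at -0.5 and 0.5.

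Among the lists of cell movement genes, that of S100, annexin and migration genes was higher as a group in count and median. Of 14 S100, annexin and migration genes with enough UMIs, 9 were higher past the fold, 0 were lower, and the median was 0.67 against 0.02 for all genes. With UMIs matched, 7 of 14 were higher past 0.5 and the median of the same genes was 0.51. S100a6, a small calcium-binding protein of migrating cells (chromosome 3, 90612882 to 90624181), had 3388 UMIs (1237 CPM) in reporter-high and 2735 UMIs (452 CPM) in no-reporter cells. Its ratio of 1.45 (1.38 to 1.53) was 0.96 (0.86 to 1.05) with UMIs matched. S100a4, its neighbour (90603771 to 90606045), had 1026 and 406 CPM, a ratio of 1.34 (1.26 to 1.42), and 0.99 (0.89 to 1.10) when matched. At the fixed depth S100a4 was found in 33.6% (29.2% to 38.1%) of reporter-high and 19.9% (17.9% to 22.0%) of no-reporter cells, so that most cells of both classes lacked it at that depth. Anxa2, a membrane-binding annexin, had a ratio of 1.40 (1.10 to 1.71) that was 0.62 (0.22 to 1.04) when matched. Lgals1, the lectin galectin-1, went from 1.19 (1.10 to 1.27) to 0.66 (0.54 to 0.77). For these 4 genes the matched interval lay wholly below that of all cells.

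Among 14 homing receptors with enough UMIs, 3 were higher past the fold and 0 lower, with a median of 0.00. Ccr2, the receptor for chemokines of inflamed tissue (chromosome 9, 124101950 to 124113557), had 331 UMIs (121 CPM) in reporter-high and 256 UMIs (42.3 CPM) in no-reporter cells. The ratio was 1.52 (1.28 to 1.76), and 0.90 (0.60 to 1.20) when matched. Ccr2 molecules were found in 72 of 452 and 94 of 1496 cells, hence in a minority of either class. Ccr4, a receptor used in skin and lung homing, had 56.6 and 33.5 CPM and a ratio of 0.76 (0.44 to 1.06). Itgb1, the integrin beta-1 chain, had a ratio of 0.62 (0.49 to 0.75), and 0.39 when matched. Receptors of other routes stood near 0 in rescued cells: Cxcr3, which binds interferon-induced chemokines, at -0.06 (-0.20 to 0.08), Ccr6, the receptor for Ccl20, at -0.04 (-0.38 to 0.29) and Itgae, the CD103 chain that binds E-cadherin, at 0.09 (-0.02 to 0.21). With UMIs matched Cxcr3 was -0.19 (-0.38 to -0.01). In the control library Cxcr3 was 0.90 (0.52 to 1.26) and Itgae 0.88 (0.51 to 1.24). Ccr6, with 52 and 106 UMIs there, was 1.82 (1.31 to 2.31).

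**Figure D3:**
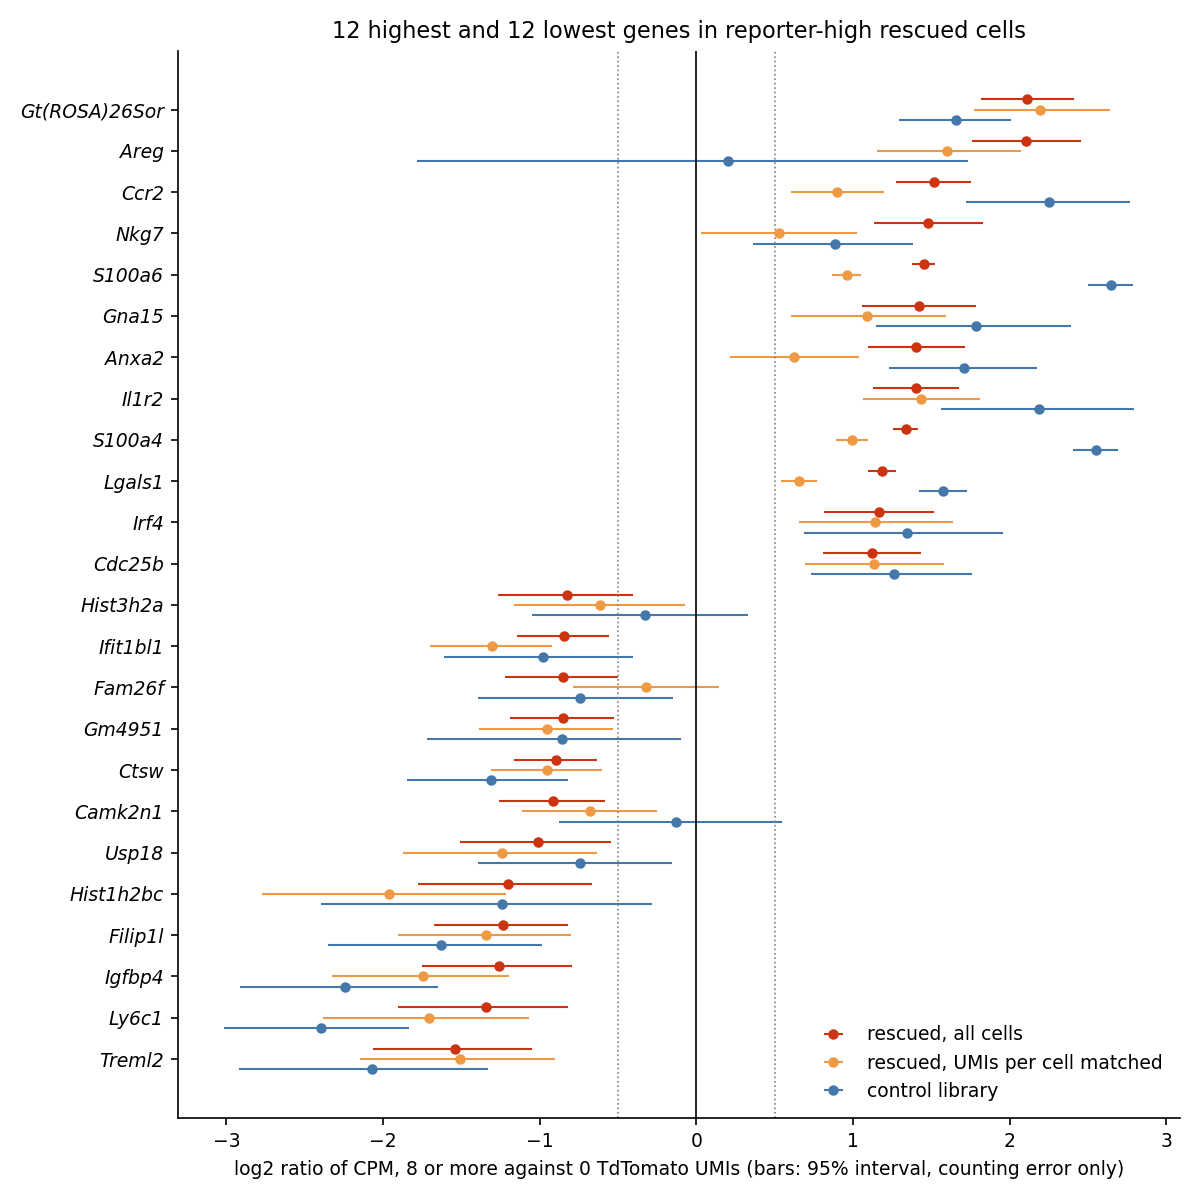
The 12 highest and 12 lowest genes in reporter-high rescued cells. Log2 ratio of CPM between cells with 8 or more and with 0 TdTomato UMIs (x axis) for each gene (y axis), in all rescued cells (red), in rescued cells with matched UMIs (orange) and in the control library (blue), with 95% counting intervals. The red points run from 2.11 (Gt(ROSA)26Sor) to -1.54 (Treml2), and the dotted lines mark -0.5 and 0.5.

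Suppressor and repair genes were higher in 7 of 12 with enough UMIs and lower in 0, with a median of 0.94 (0.53 for the same genes with UMIs matched). The median of these 12 genes was 0.23 without the 3.5% deepest cells and also 0.23 without the 5 top cells of each gene in each class, a setting added after the data had been seen. The group held genes spread over many cells and genes carried by a handful. Lag3, an inhibitory receptor that binds MHC class II (chromosome 6, 124904361 to 124911705), had 351 UMIs (128 CPM) in reporter-high and 395 UMIs (65.2 CPM) in no-reporter cells. Its ratio was 0.97 (0.76 to 1.19), and 1.36 (1.05 to 1.67) when matched. At the fixed depth it was found in 90 of 450 reporter-high cells (16.4% to 24.0%) and in 8.80% of no-reporter cells (7.41% to 10.4%). Klrg1, a receptor of terminally differentiated lymphocytes, had 93.1 and 46.1 CPM, a ratio of 1.01 (0.76 to 1.27), and 1.15 (0.80 to 1.51) when matched. Pdcd1, which encodes the inhibitory receptor PD-1, had 107 and 57.3 CPM, a ratio of 0.90 (0.67 to 1.13), and 1.00 when matched.

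Areg encodes amphiregulin, a growth factor of tissue repair. Its gene had 206 UMIs in reporter-high and 106 in no-reporter cells, a ratio of 2.10 (1.76 to 2.46), but 109 of the 206 UMIs were in 1 cell and 78.6% in 5 cells. Without the 5 top cells of each class its ratio was 1.01. The granzyme genes were as concentrated. Gzmb, a protease of cytotoxic granules, had 199 and 182 UMIs, a ratio of 1.27 (0.98 to 1.57), and -0.36 when matched, so its direction turned. Gzma, another such protease, had 135 and 150 UMIs, with 94.8% of the first in 5 cells. Nkg7, a membrane protein of the same granules, had a ratio of 1.48 (1.13 to 1.83) and of 0.53 (0.03 to 1.03) when matched, and 61.6% of its UMIs were in 5 cells.

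Exhaustion genes, which overlap that group, were higher in 6 of 9 and lower in 0, with a median of 0.67 (0.60 with UMIs matched). Beside Lag3 and Pdcd1 they were Tox2 (0.73, and 1.01 when matched), Batf (0.67 and 0.60), Prdm1 (0.58 and 0.63) and Nr4a1 (1.01 and 0.39). Tox, a factor of chronically stimulated T cells, was short of the fold at 0.30. Effector transcription factors were higher in 6 of 13 and lower in 0, with a median of 0.49 (also 0.49 when matched). Irf4, a factor induced by T cell receptor signalling and needed for effector Treg cells, had 139 UMIs (50.8 CPM) in reporter-high and 137 UMIs (22.6 CPM) in no-reporter cells, a ratio of 1.17 (0.81 to 1.52), and 1.14 (0.66 to 1.64) when matched. Il1r2, the decoy receptor for interleukin-1, had 89.9 and 34.0 CPM, a ratio of 1.40 (1.13 to 1.67), and 1.43 (1.07 to 1.81) when matched. Gna15, a G-protein alpha subunit, and Cdc25b, a phosphatase that drives entry into mitosis, completed the 12 highest genes, with ratios of 1.42 (1.06 to 1.79) and 1.12 (0.81 to 1.43).

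Of the 10 activation genes that the study names, 3 were higher past the fold, 0 were lower, and the median was 0.29 (0.19 with UMIs matched). The study named these 10 among genes correlated with a main axis of variation in these same data, so they are not independent of each other. Maf, a factor of effector and interleukin-10-producing T cells, had 839 CPM in reporter-high and 523 CPM in no-reporter cells, a ratio of 0.68 (0.60 to 0.76), and 0.69 when matched. Icos, a costimulatory receptor, had 811 and 559 CPM and a ratio of 0.54 (0.46 to 0.62). Ccr4 was the third. Ahr, a receptor for small aromatic ligands, stood at 0.35 (0.14 to 0.56), Cd44, the hyaluronan receptor, at 0.30 (0.11 to 0.48), Ctla4, the inhibitor of costimulation, at 0.29 (0.20 to 0.38) and Tnfrsf18, which encodes GITR, at 0.18 (0.10 to 0.26), all short of the fold. Cd44 was 0.04 (-0.20 to 0.28) with UMIs matched.

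The 12 lowest genes ran from -1.54 to -0.82. Treml2, a receptor of the TREM family (chromosome 17, 48299498 to 48312533), had 39 UMIs (14.2 CPM) in reporter-high and 251 UMIs (41.5 CPM) in no-reporter cells, a ratio of -1.54 (-2.07 to -1.05), and -1.51 (-2.15 to -0.90) when matched. Ly6c1, a surface antigen of resting T cells with near-identical relatives, had 35 and 196 UMIs and a ratio of -1.34 (-1.90 to -0.82). Igfbp4, which binds insulin-like growth factors, had 45 and 238 UMIs and a ratio of -1.26 (-1.75 to -0.79). Both were rare, found in 17 and 14 reporter-high and in 70 and 63 no-reporter cells. In the reporter-high class 60.0% and 64.4% of their UMIs lay in 5 cells, and in the no-reporter class 23.0% and 34.0%. At the fixed depth Ly6c1 was found in 2.44% (1.23% to 4.33%) of reporter-high and 3.25% (2.41% to 4.29%) of no-reporter cells. Igfbp4 was found in 1.33% (0.49% to 2.88%) and 2.98% (2.17% to 3.98%). For each gene the intervals of these shares overlapped. Ctsw, the lymphocyte protease cathepsin W, had 54.1 and 100.6 CPM and a ratio of -0.90 (-1.17 to -0.63), and -0.95 when matched. Filip1l (-1.23), Hist1h2bc (-1.20), Usp18 (-1.01), Camk2n1 (-0.91), Gm4951 (-0.85), Fam26f (-0.85), Ifit1bl1 (-0.85) and Hist3h2a (-0.82) made up the rest. Usp18 and Ifit1bl1 belong to interferon-induced families, and histone, Ifit and Gm4951 genes have close copies between which reads can be split. Fam26f was the exception with UMIs matched, at -0.32 (-0.79 to 0.14), while the other 11 stayed past -0.5.

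Of 12 resting genes, 5 were lower past the fold and 0 higher, with a median of -0.19. Beside Ly6c1 and Igfbp4 they were Bcl2, the survival protein (-0.81, -0.95 to -0.68), Bach2, a repressor that keeps T cells undifferentiated (-0.69, -1.19 to -0.21), and Ccr7, the receptor for entry into lymph nodes (-0.62, -0.88 to -0.38). The other 7 did not share that direction as a group. Klf2, the factor behind recirculation, stood at -0.19 (-0.30 to -0.09) and Il7r, the interleukin-7 receptor chain, at -0.19 (-0.29 to -0.09), and with UMIs matched they were -0.03 (-0.17 to 0.11) and -0.01 (-0.15 to 0.12). Actn1, an actin crosslinker, was at -0.09, Lef1, a factor of the Wnt pathway, at 0.00 and Satb1, a chromatin organiser, at 0.04. Tcf7, which encodes TCF-1, was at 0.26 (0.04 to 0.47) and S1pr1, the receptor for egress from lymph nodes, at 0.23 (0.02 to 0.44). With UMIs matched the median of the 12 was -0.03, and 2 of the 8 with 200 UMIs there were past -0.5. Those 2 were Ccr7 at -0.98 (-1.31 to -0.67) and Bcl2 at -0.76 (-0.94 to -0.59). Ly6c1 at -1.71 (-2.39 to -1.07), Igfbp4 at -1.74 (-2.32 to -1.19) and Bach2 at -1.10 (-1.81 to -0.41) fell short of 200 matched UMIs. The 5 genes lower past the fold in all cells thus stayed past -0.5 when matched.

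Within the Bcl2 family the members differed in direction. Bcl2 had 196 CPM in reporter-high and 344 CPM in no-reporter cells, and was found in 26.4% (22.4% to 30.8%) and 38.1% (35.6% to 40.6%) of cells at the fixed depth. Its ratio with UMIs matched was -0.76 (-0.94 to -0.59). Bcl2a1d and Bcl2a1b, induced survival genes whose near-identical copies can share reads, were higher at 0.95 (0.62 to 1.28) and 0.61 (0.50 to 0.73). Mcl1, another survival protein, had 524 and 590 CPM and a ratio of -0.17 (-0.26 to -0.08), and Bbc3, a death activator, was at -0.45 (-0.77 to -0.14). The median of the 10 genes with enough UMIs was 0.21, with 2 past the fold upward and 1 downward.

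The 5 genes that the study names for its persisting subset were all on the negative side, with 0 past the fold in either direction and a median of -0.35 (-0.30 with UMIs matched), beside 0.02 for all genes. Of all 6028 genes, 3254 lay on the positive side. The study took at least Ifngr1, Epcam, Lrrc32 and Il4ra from a cluster of cells in these same data. Their shared direction therefore does not amount to 5 separate results. Ifngr1, a chain of the interferon-gamma receptor, had 488 CPM in reporter-high and 668 CPM in no-reporter cells, a ratio of -0.45 (-0.54 to -0.36), and -0.30 (-0.42 to -0.18) when matched. Il2ra, the high-affinity chain of the interleukin-2 receptor, had 297 and 387 CPM, a ratio of -0.38 (-0.50 to -0.27), and -0.48 (-0.63 to -0.33) when matched. It was found in 31.6% (27.3% to 36.1%) and 44.3% (41.7% to 46.9%) of cells at the fixed depth. Lrrc32, which encodes the TGF-beta anchor GARP, was at -0.35 (-0.52 to -0.19), Il4ra, the interleukin-4 receptor chain, at -0.25 (-0.43 to -0.06) and Epcam, an adhesion protein, at -0.24 (-0.45 to -0.04). Epcam was -0.04 (-0.31 to 0.23) with UMIs matched.

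The lineage genes of Treg cells differed little between the classes of rescued cells. Foxp3 (chromosome X, 7573644 to 7595245), the gene restored in these mice, had 1245 UMIs (455 CPM) in reporter-high and 2933 UMIs (484 CPM) in no-reporter cells, a ratio of -0.09 (-0.19 to 0.00). With UMIs matched the Foxp3 ratio was -0.128 (-0.254 to -0.002). In the control library Foxp3 had 34 and 360 UMIs and a ratio of -0.56 (-1.11 to -0.05). Counted in rescued cells of unequal depth, 110 of the reporter-high cells (24.3%) and 455 of the no-reporter cells (30.4%) had no Foxp3 UMI. At the fixed depth Foxp3 was found in 51.6% (46.8% to 56.3%) and 55.2% (52.6% to 57.7%). Ikzf2, which encodes the Treg factor Helios, had 1781 and 1664 CPM and a ratio of 0.10 (0.05 to 0.15). In the control library its ratio was 0.60 (0.50 to 0.69). Among rescued cells Ikzf2 was found in 412 of 452 and 1395 of 1496 cells, so both classes carried the markers of the sorted cell type. Of 20 Treg identity genes, 1 was higher past the fold (Itgb8, an integrin chain that activates TGF-beta, 0.62) and 0 lower, with a median of 0.08.

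The cells between the classes were not used in the contrast, and their levels were set beside those at 0 UMIs. The 12 highest and 12 lowest genes were picked by their levels at 0 and at 8 or more UMIs. Standing on the same side of the level at 0, or in order over all steps, was therefore favoured by the choice of genes. No share over all genes was counted, so the counts below are descriptive. At 4 to 7 TdTomato UMIs, 9 of the 12 highest genes stood above their level at 0 UMIs, as did 9 at 2 to 3 UMIs and 8 at 1 UMI, and 6 stood higher at every step. Gt(ROSA)26Sor was one of the 6, with 23.8, 34.4, 43.4, 62.5 and 103 CPM from 0 UMIs upward. S100a6 was another, with 452, 470, 737, 910 and 1237 CPM. Ccr2 levelled off, with 42.3, 35.9, 79.4, 123 and 121 CPM. Nkg7 (20.8, 19.6, 14.8, 17.1 and 58.1 CPM) stood above its level at 0 UMIs in the class of 8 or more alone. Il1r2 (34.0, 48.9, 33.7, 24.9 and 89.9 CPM) was not ordered, since it stood above its level at 0 UMIs at 1 UMI and again at 8 or more, but not in the classes between. Setd5 ran through 110, 117, 143, 148 and 191 CPM. Of the 12 lowest genes, 12, 9 and 7 stood below their level at 0 UMIs in the classes of 4 to 7, of 2 to 3 and of 1 UMI, and 1 was ordered at every step. Foxp3 lay between 448 and 484 CPM in all 5 classes. Depth also differed between these classes, with medians of 3603, 3775, 4074, 4135 and 4911.5 UMIs.

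**Figure D4:**
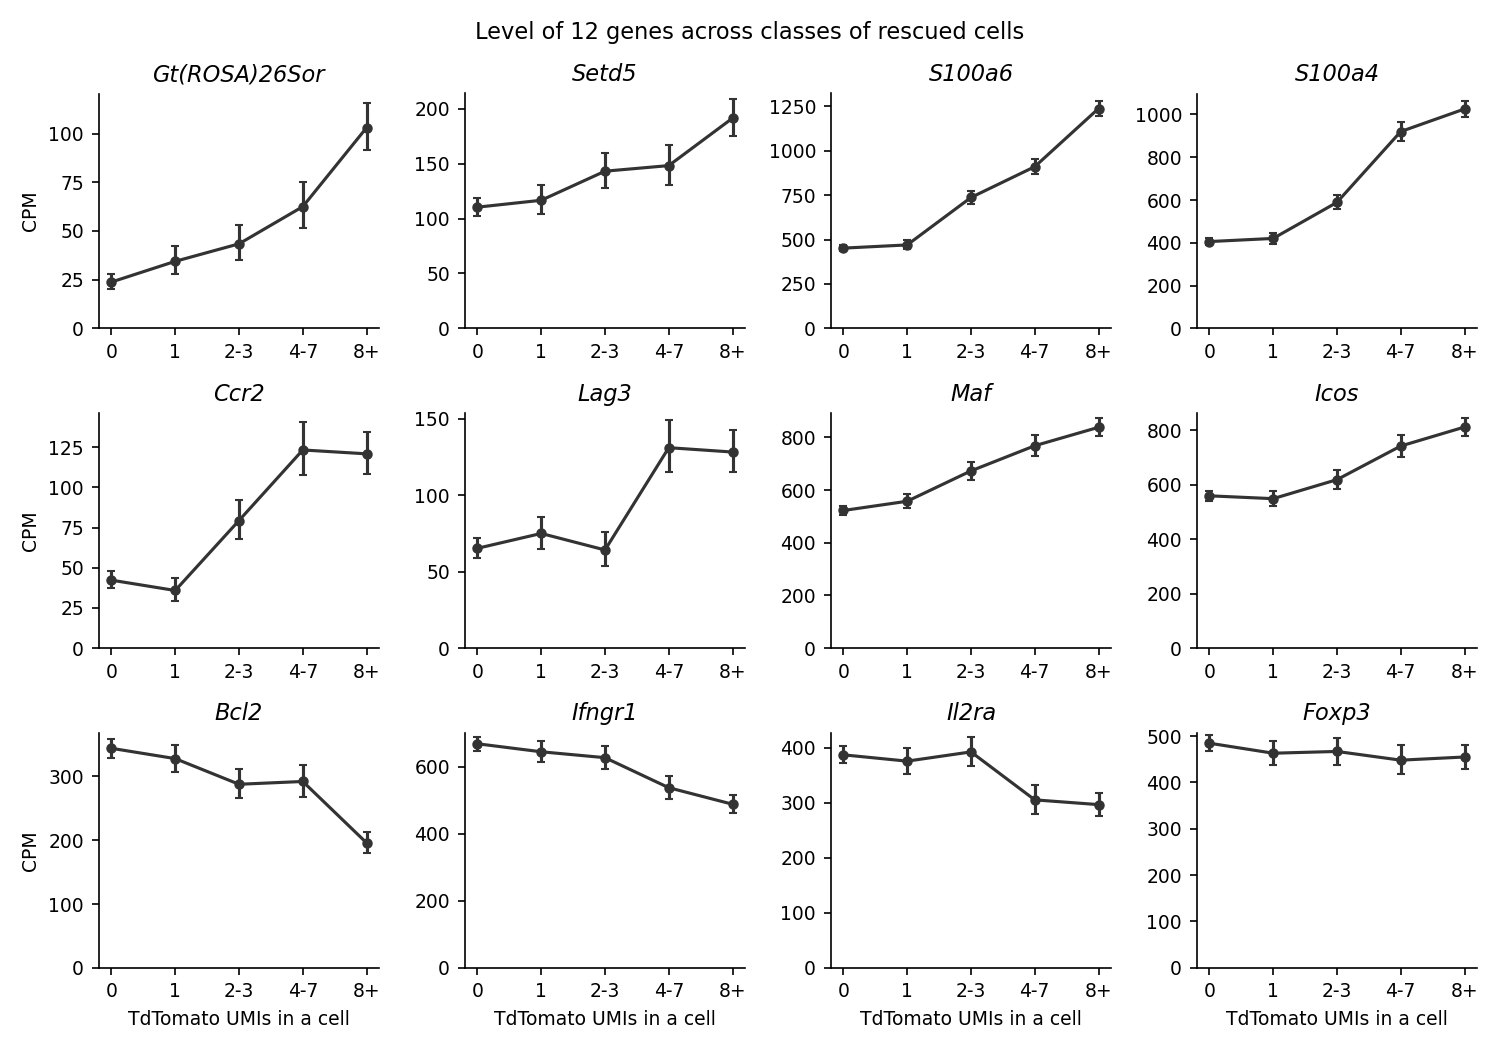
Level of 12 genes across classes of rescued cells. CPM (y axis, from 0) of each gene in cells with 0, 1, 2 to 3, 4 to 7 and 8 or more TdTomato UMIs (x axis), with exact Poisson 95% intervals. Gt(ROSA)26Sor went from 23.8 to 103 CPM, S100a6 from 452 to 1237 CPM and Bcl2 from 344 to 196 CPM, while Foxp3 lay between 448 and 484 CPM.

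In the control library the same thresholds gave 101 cells with 8 or more and 1347 cells with 0 TdTomato UMIs, out of 3634 cells. The median depth of these control classes was 4793 and 3508 UMIs. The control contrast was made in all cells of both classes, without matching UMIs. In control cells 4548 genes had 200 UMIs, of which 314 (6.9%) were higher and 191 (4.2%) lower past 0.5. Of the 124 genes higher in rescued cells, 63 had 200 UMIs in the control cells, 61 of them had the same direction and 48 were past 0.5. Of the 100 lower genes 60 had 200 UMIs, 47 had the same direction and 24 were past 0.5. The share of all genes with the same direction in both libraries was not counted. The 61 of 63 and 47 of 60 therefore have no background share beside them. No gene past the fold in rescued cells and with 200 UMIs in control cells was past it in the opposite direction (0 of 63 and 0 of 60). Gt(ROSA)26Sor had 138 CPM in reporter-high and 43.9 CPM in no-reporter control cells, a ratio of 1.66 (1.29 to 2.01), and Setd5 had 0.58 (0.30 to 0.86). S100a6 stood at 2.65 (2.50 to 2.79) and S100a4 at 2.55 (2.40 to 2.70), further from 0 than in rescued cells. The median of the 12 resting genes was -0.99 with 10 lower past the fold, and that of 7 activation genes with enough UMIs was 0.90 with 6 higher. Whether these differences between the libraries exceed the variation between captures could not be tested with 1 library each. The paper reports that most rescued Treg cells stayed labelled by the reporter, while the labelled share of control Treg cells fell with time. It names ongoing thymic supply of unlabelled cells as the most likely reason. The no-reporter classes of the libraries may therefore hold different shares of never-labelled cells, and the contrasts may not compare like with like. In the counts, cells with 0 TdTomato UMIs were 37.1% of the control and 44.1% of the rescued library. That order is the reverse of the unlabelled shares that follow from the paper. A few TdTomato UMIs in a cell therefore do not show by themselves that it was labelled. The part of labelling and of depth in the differences between the libraries was not tested. Areg had 4 and 25 UMIs in control cells and its ratio could not be set beside that of rescued cells.

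The gene lists of cell state and metabolism had medians between -0.11 and 0.23. Of 27 actin cytoskeleton genes, 2 were higher past the fold (Flna 0.71 and Actg1 0.52) and the median was 0.19. Of 20 immediate early and Nr4a genes, which respond within minutes to receptor signals, 3 were higher (Nr4a1 1.01, Egr2 0.87 and Egr1 0.61), 1 was lower (Jun -0.70), and the median was 0.17. Of 23 interferon response genes, 1 was higher (Ifi27l2a 0.67) and 2 were lower (Usp18 -1.01 and Gbp2 -0.51), with a median of -0.11. Of 14 glycolysis genes 1 was higher (Tpi1 0.54), with a median of 0.16. Of 12 dissociation stress genes 1 was lower (Jun), with a median of -0.06. Among 30 oxidative phosphorylation genes (median 0.08), 19 TCA cycle genes (0.06), 26 ribosome biogenesis and Myc-type growth genes (-0.02), 17 constitutive reference genes (-0.04) and 11 cell cycle genes (0.23), 0 were past the fold in either direction. For the cell cycle genes the median of the same genes was -0.19 with UMIs matched, for the ribosome biogenesis genes it was -0.23 and for the oxidative phosphorylation genes -0.03.

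**Figure D5:**
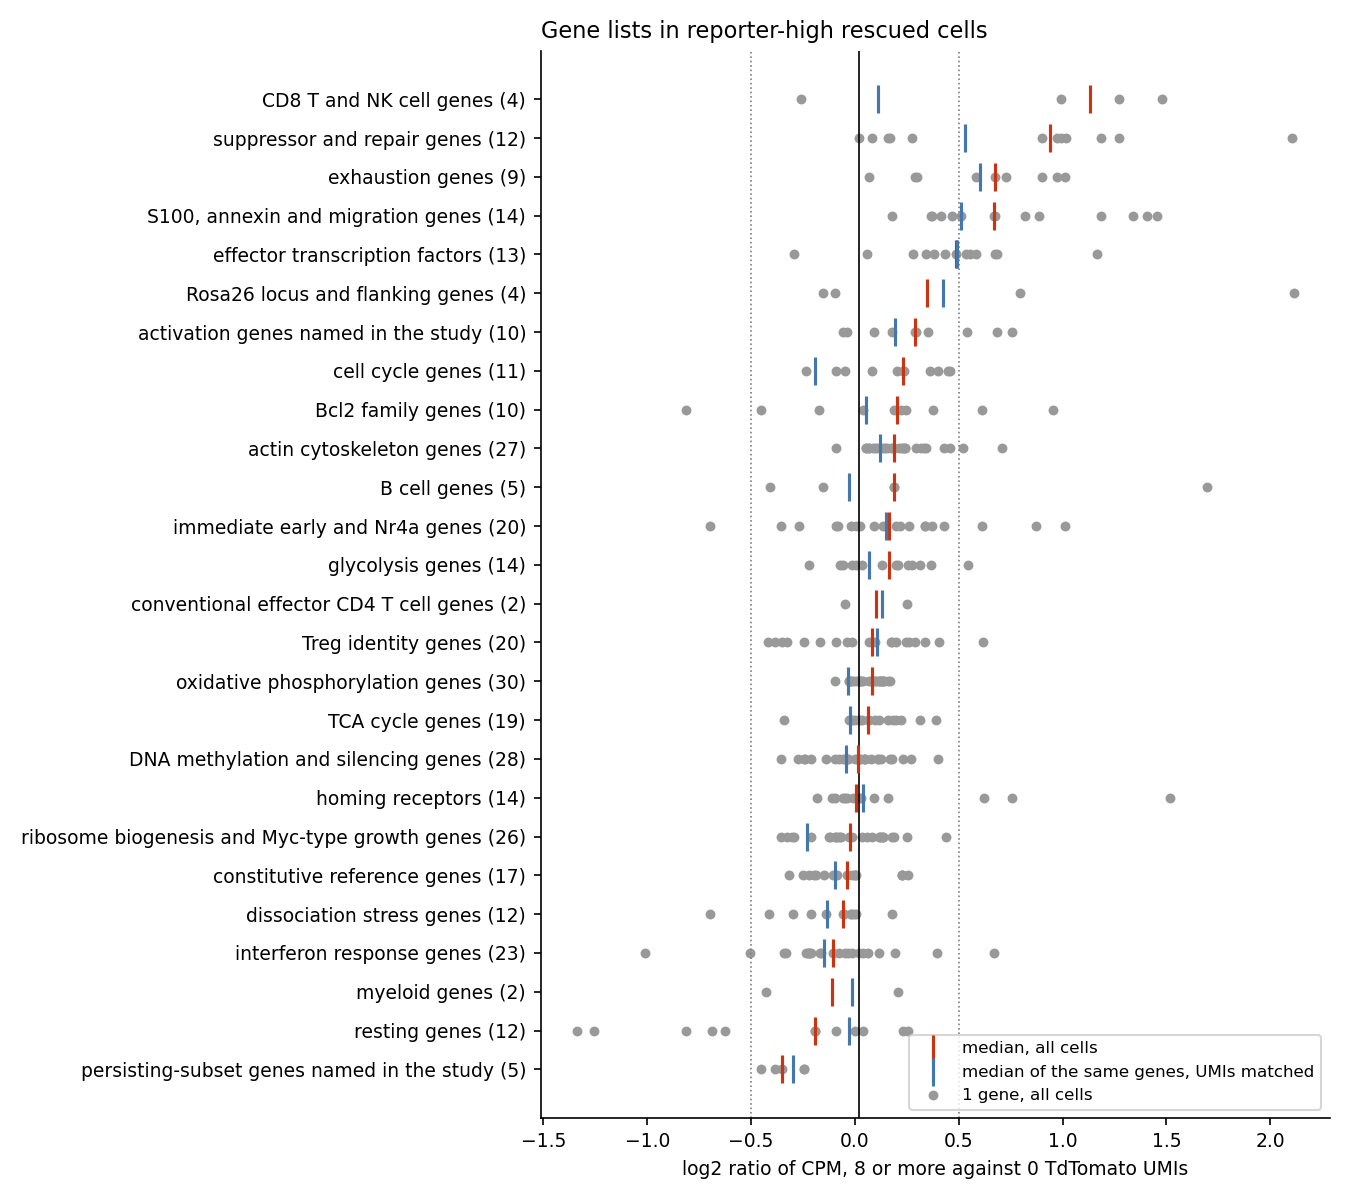
Gene lists in reporter-high rescued cells. Log2 ratio of CPM between cells with 8 or more and with 0 TdTomato UMIs (x axis) for each gene with at least 200 UMIs (grey points), by list (y axis, number of genes in brackets), with the median in all cells (red) and the median of the same genes with UMIs matched (blue). The solid line is the median of all 6028 genes, 0.02, and the dotted lines mark -0.5 and 0.5. Suppressor and repair genes had a median of 0.94 in all cells and 0.53 with UMIs matched, and the genes named for the persisting subset one of -0.35.

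Markers of other cell types were at low counts with exceptions that bear on single genes above. Of 15 CD8 T and NK cell genes, 13 were in the table and 4 had enough UMIs, namely Nkg7, Gzmb, Gzma and Ccl5 (-0.26). Of the defining markers Cd8a had 0 and 1 UMIs, Klrd1 0 and 1 and Klrb1c 2 and 2 in reporter-high and no-reporter cells, while 5 of the 13 were at 0 in reporter-high and 1 in no-reporter cells. The summed list was at 384 and 314 CPM, and the median of the 4 was 1.13 (0.11 for the same genes with UMIs matched). Of 19 B cell genes, 17 were in the table with a summed level of 2251 and 2346 CPM, most of it Ighm, and a median of 0.19 for the 5 with enough UMIs. The defining markers Cd79a and Ms4a1 had 2 and 11 and 2 and 3 UMIs. Igkc, an immunoglobulin light chain gene of B and plasma cells, was the exception at 195 and 133 UMIs, with 47 UMIs in 1 reporter-high cell. Of 18 myeloid genes, 12 were in the table at 551 and 633 CPM, nearly all of it Ctss and Cst3, whose median was -0.11, and Itgam was at 0 in both classes. Of 14 conventional effector CD4 T cell genes, 11 were in the table at 147 and 132 CPM, and the median of the 2 with enough UMIs was 0.10. Red blood cell genes were at 1.46 and 1.65 CPM, and of 8 stroma and epithelium genes 1 had enough UMIs (Pecam1, 0.05). The part of such cells or of free RNA in the ratios of Nkg7, Gzma, Gzmb and Areg was not tested.

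Joint detection of the higher genes in single reporter-high cells varied from pair to pair. In the 450 reporter-high cells thinned to 2000 UMIs, 9 genes picked after the values had been seen gave 36 pairs. For 18 pairs the number of cells with both genes was within 1.5 times the number to be had if their detection were unrelated, for 11 it was above that and for 7 below. Klrg1 and Pdcd1 (6 cells against 5.96) and Gt(ROSA)26Sor and Pdcd1 (14 against 14.1) were among the 18. Outside that range lay Ccr2 and S100a4, since 36 of the 44 cells with Ccr2 also held S100a4, against 14.8. Klrg1 and S100a4 were found together in 24 cells against 13.4. Lag3 and Ccr2 were found together in 2 cells against 8.80, and Gt(ROSA)26Sor and Ccr2 in 4 against 9.29. Gt(ROSA)26Sor and Lag3 were found together in 35 cells against 19.0, while Lag3 and Pdcd1, in 20 against 13.4, were within 1.5 times. These counts describe cells of 1 library and carry no error over animals.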

How the data were processed

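Single Treg cells were profiled with the 10x Chromium 3′ v3 kit, 1 library per group, so that groups have no replicates. The authors aligned the reads with Cell Ranger 3.0 to mouse GRCm38 with the tdTomato allele added, and deposited counts, whole UMIs, in a table of 7024 cells by 16098 genes. A second table of log2 values made by the authors was not used, and 0 further columns with values of samples were left unused. Cells were assigned to libraries by the prefix of their names. The libraries shared 3 barcodes.

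For each class the counts of its cells were added up in Python 3.11.15 (numpy 2.4.6, scipy 1.17.1, pandas 2.3.3) and scaled to the class's UMIs of all genes but TdTomato. Genes needed 200 UMIs over the cells compared, and a log2 ratio of 0.5 was taken as the fold. Ratios carry conditional exact intervals, shares exact binomial (Clopper-Pearson) intervals and levels exact Poisson intervals. These cover counting error only. The depth of 452 and 1496 cells was 2737883 and 6053678 UMIs. For shares, cells were thinned to 2000 UMIs, which left out 2 reporter-high and 19 no-reporter cells. All cells were sorted Treg cells, so no cell type that lacks these genes gave a background share. The ratio script was tested on simulated data. No doublet caller was run. Leaving out the 3.5% deepest cells was an alternative, and 43 of those 119 cells were reporter-high.

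Genes were named by rule: the 12 highest and 12 lowest ratios with the same sign when matched, and the 5 highest and 5 lowest matched ratios, leaving out mitochondrial genes, genes of ribosomal proteins and the immunoglobulin and T cell receptor loci. All genes of the activation, resting, persisting-subset and Rosa26 lists, Foxp3, Ikzf2 and Mcl1 were added. The other lists were given by counts, median and a few members. The members and the 28 gene lists were chosen with earlier results of these data known. Of the list genes, 3 were matched by an older symbol and 20 were not in the table. One resting gene of the study is not reported here. Positions are from GENCODE vM21.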

Additional observations from a re-analysis of the deposited data

Results flagged for a closer look

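Of the named genes with 200 UMIs in both libraries, 2 had ratios on opposite sides of 0 in rescued and control cells, each with a counting interval clear of 0. S1pr1 had a log2 ratio of 0.23 (0.02 to 0.44) in rescued and -1.14 (-1.50 to -0.79) in control cells. Il7r had -0.19 (-0.29 to -0.09) in rescued and 0.42 (0.24 to 0.60) in control cells. With UMIs matched in rescued cells, S1pr1 was 0.38 (0.09 to 0.67) and Il7r -0.01 (-0.15 to 0.12). The difference between the libraries was not tested, since each group has 1 library. The control values are from cells without matched UMIs.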

How the results depend on the processing

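Alternatives were 11 other ways of choosing or scaling cells, other UMI minimums of 100 and 500, and a log2 ratio of 1. One of them, leaving out the 5 top cells of each gene, was chosen after seeing the data, and it takes a larger share of the smaller class by construction. The 124 genes higher past the fold became 80 with UMIs matched 1 to 1, 268 at 16 or more TdTomato UMIs, 74 without the top cells, 240 and 65 at minimums of 100 and 500 UMIs and 18 at a log2 ratio of 1. The 100 lower genes became, in the same order, 50, 310, 182, 224, 25 and 6, and were 61 at 4 or more TdTomato UMIs and 65 without cells over 10% mitochondrial. The activation median of 0.29 was 0.50 at 16 or more TdTomato UMIs and 0.037 within activation strata. The resting median of -0.19 was -0.028 with UMIs matched, -0.60 at 16 or more and turned to 0.021 within activation strata. These strata are built from the activation and resting genes, so that values of those genes within them are fixed in part by construction. Fewer cells and genes enter the matched contrast, and for the other values the cause was not tested.

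A direction was counted as turned where the reported counting interval (for a list, the median of its genes' bounds) was clear of 0 and the value lay on the other side. Within activation strata it turned for Tnfrsf18 (-0.074), Ctla4 (-0.0088), Klf2 (0.47) and Ikzf2 (-0.019). With UMIs matched by weights it turned for Cd44 (-0.086), Klf2 (0.036), Epcam (0.0065) and the glycolysis median (-0.020). Tcf7 was -0.16 at 16 or more TdTomato UMIs. The CD8 T and NK median of 1.13 was -0.082 without the 3.5% deepest cells and -0.16 without the top cells. All 12 highest and 8 of the 12 lowest genes were past the fold in each of the 11 settings, the exceptions being Ly6c1 (-0.34) and Igfbp4 (-0.20) within activation strata, Fam26f (-0.32) with UMIs matched and Hist3h2a, between -0.45 and -0.40 in 3 settings. These genes were picked as the most extreme in largely the same cells, and with the same sign when matched. Staying past the fold was therefore favoured in advance. Of the named genes' values 481 stayed within the counting interval, 138 left it without turning and 8 turned. Where the reported interval held 0, the sign differed in 22 further values of 7 named genes, Itgae among them (-0.05 with UMIs matched), and in 35 values of 11 lists, the cell cycle, oxidative phosphorylation and Treg identity lists among them. No paired analysis was possible because both classes are cells of a single library and carry no replicate numbers. Ratios of genes near 200 UMIs are limited by depth, with intervals over 1 log2 unit wide for Hist1h2bc and Treml2.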
